A study of Mus musculus with 24 samples.

Results

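The Id family comprises Id1, Id2, Id3 and Id4, the inhibitors of DNA binding. Its probes were found by gene name in the scanner files: 7 probes of the 41174 on the array and 4 genes of the 24717 tested. Id1, Id2 and Id4 had 2 probes each, numbered here by brightness with the brighter first, and Id3 had 1. On the 6 h and 12 h arrays the names were Id1, Id2, id3 and Id4, and on the male-female arrays, made with an older design file, Idb1 to Idb4, with the same probes and accessions. All 7 probes were well above background in both channels on 24 of 24 arrays, and none was saturated.

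The tissue was the urogenital sinus (UGS), the embryonic tube of endoderm and mesenchyme from which the prostate buds in males, taken from C57/Bl6J mouse embryos. In the 6 h group, dams were given 50 mg/kg dihydrotestosterone (DHT), a potent androgen, at 16 days post coitum (dpc), and the UGS of female embryos was taken 6 h later and set against that of female embryos of vehicle-treated dams (4 pairs of pools, 8 arrays). The 12 h group was made in the same way with harvest at 12 h (3 pairs, 6 arrays). In the third group untreated males were set against their untreated female littermates at 17.5 dpc, which the labels also call the 48 h point (5 pairs, 10 arrays). Each pool held RNA of several embryos, sex was judged from the gonads, and each pair was hybridised directly, once in each dye orientation. All groups were of 1 inbred strain with no engineered allele. A pool average cannot tell fewer cells of a type from less RNA per cell.

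Id proteins are helix-loop-helix factors that lack the basic region with which related factors bind DNA. They bind the E proteins, the common partners of tissue-restricted basic helix-loop-helix (bHLH) factors, and so keep those pairs off E-box sites, which delays differentiation. Id1, Id2 and Id3 are widely used direct targets of bone morphogenetic protein (BMP) signalling through Smad proteins, and BMPs take part in prostatic budding. Id4 is best known from the nervous system, the mammary gland and the testis.

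Promoters are shown as a description, and no link of their letters to the direction of an Id gene was tested. RefSeq's promoter table, build GRCm38.p6, held 3 of the 4 genes, without Id1. Each sequence is the 250 bases before the annotated start, 5′ to 3′ on the gene's strand, at chr12:25096093-25096342 (minus strand) for Id2, chr4:136143572-136143821 (plus strand) for Id3 and chr13:48260866-48261115 (plus strand) for Id4. Capitals mark matches on either strand to the CCAAT box (CCAAT), the GC-rich Smad motif (GGCGCC) and the E box (CANNTG), none of which overlap here.
Id2: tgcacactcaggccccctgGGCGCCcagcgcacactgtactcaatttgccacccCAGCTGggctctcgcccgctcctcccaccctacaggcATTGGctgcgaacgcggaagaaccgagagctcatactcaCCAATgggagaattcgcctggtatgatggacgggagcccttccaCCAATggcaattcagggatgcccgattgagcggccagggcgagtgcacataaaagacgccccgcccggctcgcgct
Id3: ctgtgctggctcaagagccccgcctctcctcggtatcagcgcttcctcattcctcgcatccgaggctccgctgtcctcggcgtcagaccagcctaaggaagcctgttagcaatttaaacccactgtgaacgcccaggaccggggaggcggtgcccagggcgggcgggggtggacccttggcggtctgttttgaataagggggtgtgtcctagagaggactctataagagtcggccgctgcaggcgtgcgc
Id4: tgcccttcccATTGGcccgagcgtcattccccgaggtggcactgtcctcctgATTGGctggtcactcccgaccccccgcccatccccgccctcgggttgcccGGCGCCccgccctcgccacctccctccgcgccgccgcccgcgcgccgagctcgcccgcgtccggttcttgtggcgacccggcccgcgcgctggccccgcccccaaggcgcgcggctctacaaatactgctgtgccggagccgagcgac
Id2 held 3 CCAAT boxes, 1 GC-rich Smad motif and 1 E box. Id4 held 2 CCAAT boxes and 1 GC-rich Smad motif, and in Id3 none of these letters occurred in the window. Among 32851 promoters of this length, 33.9% held a CCAAT box, 9.59% the GC-rich Smad motif and 66.2% an E box. A steroid receptor motif (AGAACA, in 16.1% of all promoters) and a TATA box (TATAAA, in 12.4%) were found in none of the 3 windows. The GC content was 62.8% in Id2 and in Id3 and 75.6% in Id4, against a median of 52.4% over all promoters. A match describes letters and not a binding site.

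Several features of the arrays bear on every value below. Median spot signals were 98.1 to 146.2 in Cy5 and 102.3 to 151.1 in Cy3. Each comparison had 3 to 5 pairs, a number that limits the precision. How many of all genes had pools without overlap was not counted, so such a gap below is only a description. Although all DHT and vehicle pools were labelled female, the mean log2 ratio of 4 Y-linked genes at 6 h was −0.14, −1.27, −0.68 and −0.74 in replicates 1 to 4. Vehicle pools of replicates 2 to 4 therefore carried Y-linked RNA and went against their label, and 6 h results of the Id genes are also given from replicate 1 alone. At 12 h the same mean lay between −0.08 and 0.05, and in males against females between 1.25 and 1.69. Per the labels each comparison was hybridised on a date of its own, so a difference between comparisons and a difference between dates cannot be told apart. Within a comparison both pools of a pair lay on each array.

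At 6 h after DHT, Id1 was lower and was the 1 of the 4 genes past the threshold. Id3 lay at negative log2 ratios in all pairs but missed it narrowly. Id2 gave different answers on its 2 probes, and Id4 split by pair. Over all genes 1.63% passed at 6 h in either direction (403 of 24717). Values below are log2 ratios of DHT over vehicle, with two-sided limma tests and Benjamini-Hochberg adjustment over all genes.

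Id1 was at −0.46, −0.51, −0.27 and −0.38 in replicates 1 to 4 on its brighter probe, and at −0.48, −0.47, −0.27 and −0.39 on the other. On the log2 intensity scale its DHT pools read 12.14, 12.29, 12.41 and 12.45 and its vehicle pools 12.60, 12.80, 12.68 and 12.82. Every DHT pool lay below every vehicle pool. In limma Id1 fell by 0.40 (SD 0.10, n = 4, SE 0.057, adjusted p = 0.0083), a fold of 0.755 (95% confidence interval 0.694 to 0.823), and its second probe by 0.40 as well (adjusted p = 0.00673 over all kept probes, of which 1.69% passed). Without replicate 1 the log2 ratio was −0.39 (adjusted p = 0.0775) and without replicate 2 −0.37 (adjusted p = 0.0635). Per the file headers the 6 h images were extracted on 2 days, and the 4 arrays of each day averaged −0.41 and −0.40. From replicate 1 alone, the pair with the least Y-linked RNA, it was −0.46 (adjusted p = 0.225, with the spread taken from the other comparisons).

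Id2 was at −0.00, −0.19, −0.05 and −0.22 on its brighter probe, with a mean of −0.12 (SD 0.11, n = 4, SE 0.045, adjusted p = 0.247 in limma). On its second probe the same pairs read −0.59, −0.44, −0.58 and −0.57, with a mean of −0.55 (SD 0.07, n = 4, adjusted p = 0.00183 in limma over all kept probes). DHT and vehicle pools overlapped on the brighter probe (DHT 11.91 to 12.04, vehicle 12.02 to 12.14) and stood apart on the second (DHT 9.47 to 9.87, vehicle 10.07 to 10.31). The second probe lay lower in 4 of 4 pairs, by 0.25 to 0.59, with a mean difference of −0.43 (SD 0.16, n = 4, two-sided exact sign-flip permutation p = 0.125, the smallest that 4 pairs allow). Both probes carry the same accession for Id2, and which stretch of the transcript each one covers was not used here. With the mean of both probes standing for the gene, Id2 was at −0.33 (adjusted p = 0.00604 in limma). From replicate 1 alone the brighter probe was at −0.00 (adjusted p = 1 in limma).

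Id3 was at −0.25, −0.29, −0.40 and −0.21. Its DHT pools lay at 9.35 to 9.56 and its vehicle pools at 9.60 to 9.86, without overlap. The mean was −0.29 (SD 0.08, n = 4, SE 0.067, adjusted p = 0.0534 in limma), and adjusted over all kept probes instead the p was 0.0498. Its mean dye effect on the log2 ratio was −0.15 at 6 h, −0.08 at 12 h and −0.18 between the sexes. At 6 h 1 array of replicate 1 was left out as an outlier spot, so that pair was not balanced for dye. With all 24 arrays and a dye term Id3 was at −0.27 (adjusted p = 0.00577 in limma), and from replicate 1 alone at −0.25 (adjusted p = 0.698).

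Id4 was at 0.31, 0.23, −0.15 and −0.16, and on its second probe at 0.30, 0.27, −0.23 and −0.23. Replicates 1 and 2 lay above 0 and replicates 3 and 4 below on both probes, and the mean of 0.06 (SD 0.25, n = 4, adjusted p = 0.906 in limma) hides that split. From replicate 1 alone Id4 was at 0.31 (adjusted p = 0.588 in limma).

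**Figure D1:**
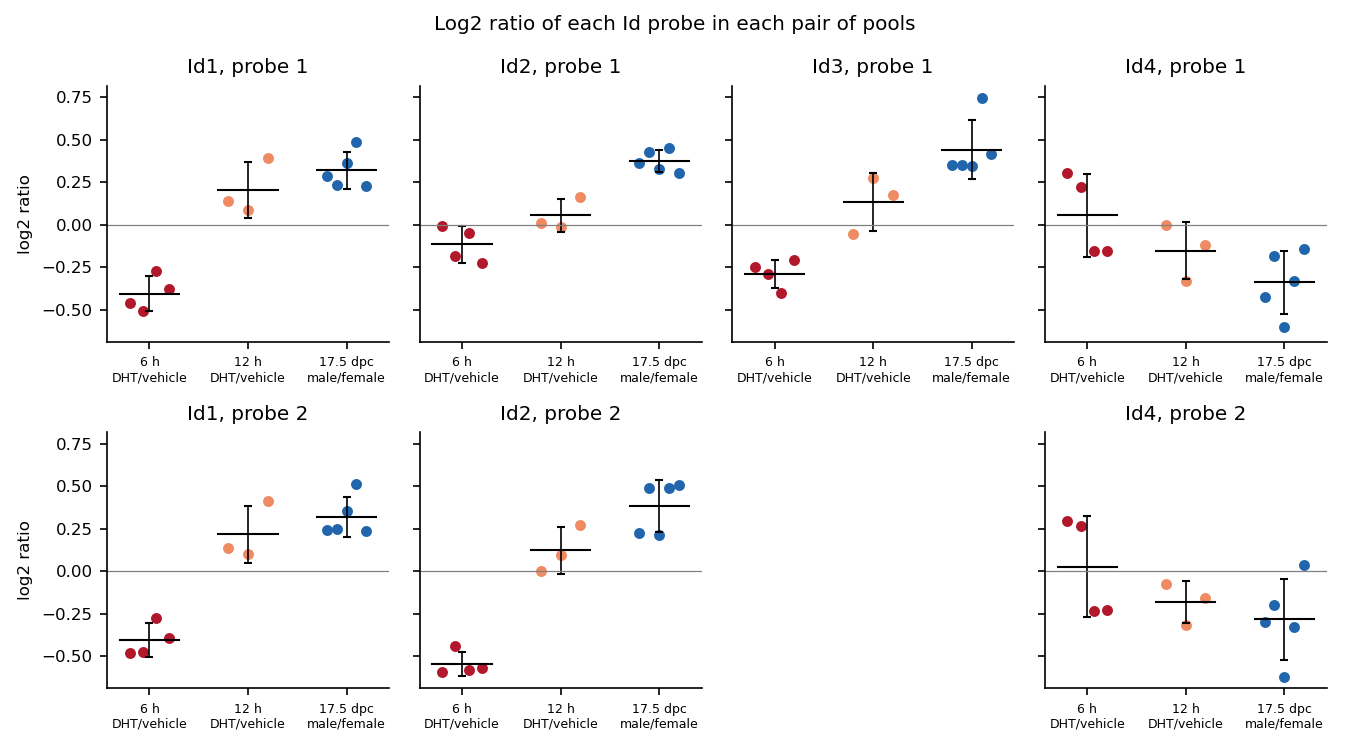
Log2 ratio (y axis) of the 7 Id probes in each pair of pools, with points in replicate order, in the 3 comparisons (x axis); bars are the mean and whiskers the SD over 4, 3 and 5 pairs. Id1 lies below 0 at 6 h and above 0 in the other comparisons, Id2's probes are farthest apart at 6 h, and Id4 lies below 0 in males against females apart from 1 pair of its second probe at 0.04.

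At 12 h after DHT 0 of the 4 Id genes passed the threshold in limma, where 1 (Id1) had an unadjusted p under 0.05. So had 3479 of all 24717 genes. Over all genes 0.287% passed at this time, and over all kept probes 0.276%. Id1 was at 0.14, 0.09 and 0.39, all above 0, with DHT pools at 12.59 to 12.81 and vehicle pools at 12.41 to 12.50, without overlap. That is a mean of 0.21 (SD 0.16, n = 3, adjusted p = 0.175 in limma), and its second probe gave 0.22. Id2 was at 0.01, −0.01 and 0.17 (mean 0.06, SD 0.10, n = 3, adjusted p = 0.699 in limma). The mean dye effect of this brighter probe was 0.11, and its 2 arrays had opposite signs in replicates 1 and 2. On its second probe Id2 was at 0.00, 0.10 and 0.27. Here the probes of Id2 differed by 0.07 on average. Id3 read −0.05, 0.28 and 0.17 (mean 0.13, SD 0.17, n = 3, adjusted p = 0.483 in limma), with replicate 2 from 1 array and so not balanced for dye. With all 24 arrays and a dye term Id3 was at 0.08. Id4 read −0.00, −0.33 and −0.12 (mean −0.15, SD 0.17, n = 3, adjusted p = 0.572 in limma), and −0.18 on its second probe. Leaving out replicate 3 took Id1 to 0.11 and Id2 to 0.002, and leaving out replicate 2 took Id3 to 0.06 and Id4 to −0.06. With any 1 of the 3 pairs left out, none of the 4 genes passed in limma (adjusted p = 0.196 to 0.997).

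In males against females at 17.5 dpc, all 4 genes passed the threshold. Id1, Id2 and Id3 were higher in males and Id4 was lower. Over all genes 7.58% passed in either direction (1873 of 24717, 920 higher and 953 lower), and over all kept probes 6.19%. Values are log2 ratios of male over female.

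Id2 gave 0.36, 0.43, 0.33, 0.45 and 0.31 in replicates 1 to 5. Male pools read 12.13 to 12.39 and female pools 11.80 to 12.00, with every male pool above every female pool. The mean was 0.38 (SD 0.06, n = 5, SE 0.040, adjusted p = 5.55e-05 in limma), a fold of 1.30 (95% confidence interval 1.22 to 1.38). Its second probe gave 0.23, 0.49, 0.21, 0.49 and 0.51 (mean 0.39, adjusted p = 0.000435 in limma over all kept probes), so the 2 probes that parted at 6 h differed by 0.01 on average between the sexes.

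Id3 gave 0.35, 0.35, 0.35, 0.75 and 0.41, with replicate 4 well above the rest. Male pools lay at 10.85 to 11.30 and female pools at 10.50 to 10.86, with 1 male pool just below the highest female pool. Its mean was 0.44 (SD 0.17, n = 5, SE 0.060, adjusted p = 0.000404 in limma), a fold of 1.36 (95% confidence interval 1.24 to 1.49). In replicate 1 both Id3 and the brighter Id1 probe rest on 1 array, since their spots on the dye-swapped array were outliers. With all 24 arrays and a dye term Id3 was at 0.47.

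Id1 gave 0.29, 0.24, 0.36, 0.49 and 0.23. Pools varied more between pairs than within them, at 12.42 to 13.18 in males and 12.18 to 12.73 in females, so the groups overlapped although each male pool exceeded its littermates' pool. The mean was 0.32 (SD 0.11, n = 5, SE 0.051, adjusted p = 0.00137 in limma), a fold of 1.25 (95% confidence interval 1.16 to 1.35), and the second probe gave 0.32 too. Per the file headers the male-female images were extracted on 3 days, of 1, 1 and 8 arrays. On these days the second probe averaged 0.21, 0.20 and 0.35.

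Id4 gave −0.42, −0.18, −0.60, −0.33 and −0.14, lower in 5 of 5 pairs. Its male pools read 9.24 to 9.75 and its female pools 9.57 to 10.17, with overlap. Id4 fell by 0.34 (SD 0.19, n = 5, SE 0.080, adjusted p = 0.019 in limma), a fold of 0.792 (95% confidence interval 0.703 to 0.892). Without replicate 1, 3 or 4 the adjusted p was 0.0629, 0.0663 or 0.0631. The second probe read −0.30, −0.20, −0.62, −0.33 and 0.04, with a mean of −0.28 that did not pass (adjusted p = 0.102 in limma over all kept probes).

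Differences between comparisons were tested as contrasts of the same fit. The male-female ratio exceeded the 6 h DHT ratio for Id1 by 0.73 (SE 0.076, adjusted p = 0.000137 in limma), for Id2 by 0.49 (SE 0.060, adjusted p = 0.000386) and for Id3 by 0.73 (SE 0.090, adjusted p = 0.000409), 3 of 4 genes against 6.91% of all genes. On the second Id2 probe this difference was 0.93 (adjusted p = 2.45e-05 in limma over all kept probes, of which 5.67% passed). From replicate 1 alone at 6 h, the difference of Id2 was 0.38 (adjusted p = 0.115) and that of Id3 0.69 (adjusted p = 0.108). For Id4 the difference was −0.39 (adjusted p = 0.0701 in limma). The 12 h ratio exceeded the 6 h ratio for Id1 by 0.61 (SE 0.087, adjusted p = 0.0247 in limma), where 0.113% of all genes passed, and for the second probe of Id2 by 0.67 (adjusted p = 0.0237 in limma over all kept probes, of which 0.259% passed), while on the brighter Id2 probe that difference was 0.17 (adjusted p = 0.272 over all genes). The Id1 difference lost the threshold without 6 h replicate 1 or 2 (adjusted p = 0.0731 and 0.104) and without 12 h replicate 1, 2 or 3 (adjusted p = 0.0729, 0.0767 and 0.14). For Id2 the male-female ratio exceeded the 12 h ratio by 0.32 (SE 0.066, adjusted p = 0.0283 in limma), where 1.65% of all genes passed, and on its second probe by 0.26 (adjusted p = 0.162 in limma over all kept probes). That difference did not pass without 12 h replicate 1 or 2 (adjusted p = 0.13 and 0.113) or male-female replicate 2 or 4 (adjusted p = 0.0619 and 0.0708). For Id1 and Id3 the male-female ratio stood 0.11 and 0.31 above the 12 h ratio, with 95% confidence intervals of −0.07 to 0.29 and 0.10 to 0.52 before adjustment.

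Levels of a probe can be followed across all 24 pools on the log2 intensity scale, though the 3 comparisons lay on different dates and were not tested against each other. Id1 averaged 12.32 ± 0.14 in DHT and 12.73 ± 0.10 in vehicle pools at 6 h (SD, n = 4), 12.66 ± 0.13 in DHT and 12.45 ± 0.04 in vehicle pools at 12 h (SD, n = 3), and 12.83 ± 0.29 in male and 12.51 ± 0.23 in female pools (SD, n = 5). In this order of levels, males first and 6 h DHT pools last, neighbouring groups overlapped. The brighter Id2 probe averaged 11.98 ± 0.06 in DHT and 12.10 ± 0.06 in vehicle pools at 6 h, 11.22 ± 0.14 in DHT and 11.17 ± 0.04 in vehicle pools at 12 h, and 12.25 ± 0.11 in male and 11.87 ± 0.10 in female pools. Both 12 h groups lay apart from all other pools, at 11.13 to 11.38 against 11.80 or more, while neighbours among the other groups overlapped.

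On the second Id2 probe the order was another one. It averaged 9.65 ± 0.17 in DHT and 10.19 ± 0.11 in vehicle pools at 6 h, 10.19 ± 0.17 in DHT and 10.07 ± 0.09 in vehicle pools at 12 h, and 11.06 ± 0.16 in male and 10.67 ± 0.11 in female pools. Here the 12 h pools were level with the 6 h vehicle pools and the 6 h DHT pools were lowest. Id3 averaged 9.46 ± 0.09 in DHT and 9.75 ± 0.11 in vehicle pools at 6 h, 9.81 ± 0.47 in DHT and 9.67 ± 0.55 in vehicle pools at 12 h, and 11.13 ± 0.18 in male and 10.69 ± 0.15 in female pools. All 17.5 dpc pools lay above all earlier pools for Id3, and its 12 h pools ranged from 9.10 to 10.20 with the pools of a pair moving together. The brighter Id4 probe ran the other way. It averaged 10.14 ± 0.12 in DHT and 10.08 ± 0.17 in vehicle pools at 6 h, 10.41 ± 0.13 in DHT and 10.56 ± 0.07 in vehicle pools at 12 h, and 9.53 ± 0.21 in male and 9.87 ± 0.26 in female pools. The 12 h pools were highest and males lowest, and neighbouring groups overlapped except that the lowest 12 h DHT pool and the highest 6 h DHT pool just met, both at 10.29.

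**Figure D2:**
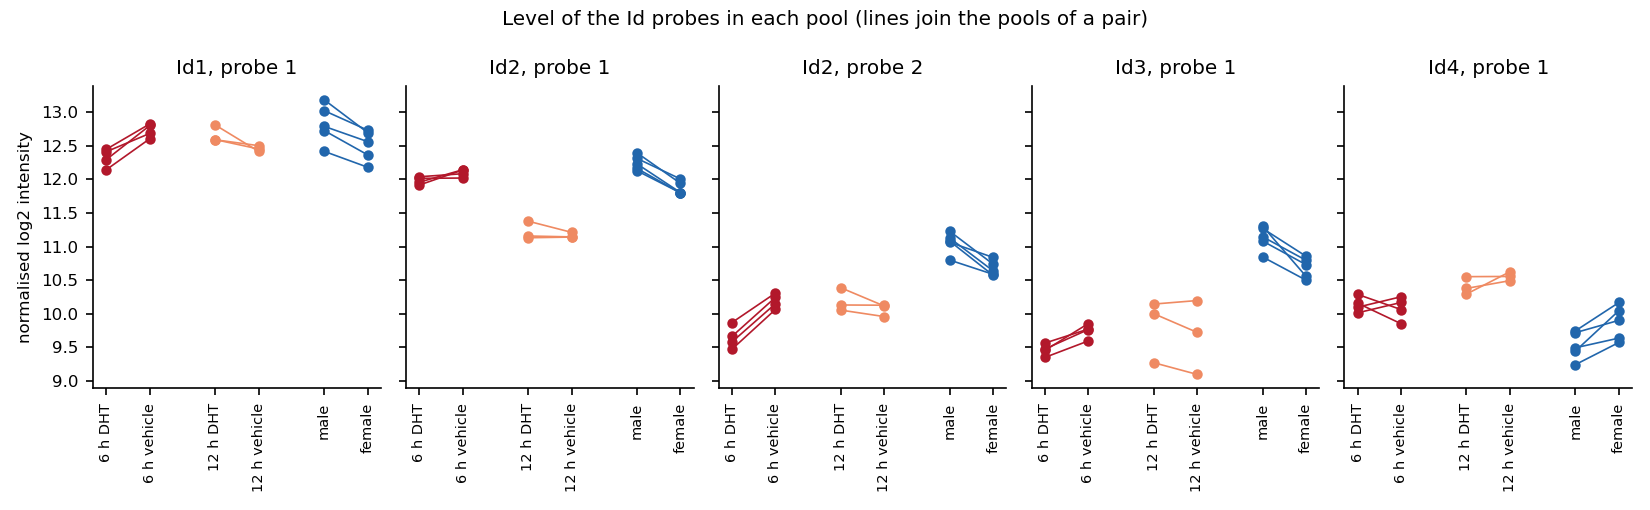
Normalised log2 intensity (y axis) of 5 Id probes in every pool by group (x axis); a point is a pool and a line joins the pools of a pair. Id3 and the second Id2 probe are highest at 17.5 dpc, the brighter Id2 probe is lowest at 12 h, and Id4 is lowest in males, at 9.24 to 9.75.

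Over the 12 pairs, the log2 ratios of Id1, Id2 and Id3 ran together, with Pearson r of 0.85 for Id1 with Id2, 0.886 for Id1 with Id3 and 0.871 for Id2 with Id3. Id4 ran against them, with r of −0.71, −0.58 and −0.66. These are descriptions over 12 pairs that fall into 3 comparisons. The 2 probes of a gene had r of 0.998 for Id1, 0.872 for Id2 and 0.952 for Id4. Among 24674 other genes without a missing pair, the closest to Id1 were Pla2g4a, a cytosolic phospholipase (r = 0.97), Col4a6, a basement membrane collagen chain (r = 0.966), and Sp6, a zinc-finger factor (r = 0.965). Closest to Id2 were Clu, the chaperone clusterin (r = 0.963), Ddx3y, a Y-linked RNA helicase (r = 0.962), and Aldh1a1, a retinaldehyde dehydrogenase (r = 0.961). Close to Id3 were Vamp8 of vesicle fusion (r = 0.974) and Tomm6 of mitochondrial protein import (r = 0.949). Close to Id4 were a probe that the files name only TC1246567 (r = 0.957) and Gprasp2 (r = 0.94). With the mean of each comparison taken out, r was 0.595 for Id2 with Ddx3y and 0.54 for Id2 with Aldh1a1, and 0.721 to 0.922 for the others named here.

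The partners and targets of Id proteins and the BMP pathway were read from the same fit, 78 genes measured of 79. At 6 h 0 were higher and 1 lower (median −0.02, against 0.01 over all genes). At 12 h 0 passed in limma, with 10 at an unadjusted p under 0.05 (median 0.01). Of all 24717 genes, 3525 at 6 h, 3479 at 12 h and 4569 in males had an unadjusted p under 0.05 in limma. In males 7 were higher and 10 lower, and 61 did not pass (median −0.03, against 0.00 over all genes). Over all genes 7.58% passed in males.

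Among the 3 E proteins, which Id proteins bind, a different member was lower in each of 2 comparisons. Tcf3, which encodes E2A, was at −0.47, −0.38, −0.22 and −0.18 at 6 h, a mean of −0.31 (SD 0.13, n = 4, adjusted p = 0.0115 in limma), and at −0.01 in males. Tcf4, or E2-2, was at −0.39, −0.44, −0.28, −0.35 and −0.15 in males, a mean of −0.32 (SD 0.11, n = 5, adjusted p = 0.000404 in limma), and at 0.02 at 6 h. Tcf12, or HEB, was at 0.01 at 6 h and −0.14 in males and passed in neither.

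Of 19 tissue-restricted bHLH factors, which pair with E proteins, 3 were higher and 3 lower in males, where 7.58% of all genes passed. Scx, or scleraxis, a factor of tendon, fell by 0.82 (adjusted p = 7.9e-05 in limma) and Twist2, a factor of mesenchyme, by 0.36 (adjusted p = 0.00192), while Tcf15, or paraxis, rose by 0.42 (adjusted p = 0.000132). None of 9 Hes, Hey and Dec repressors and none of 3 retinoblastoma family genes passed in males, where 2 and 0 had an unadjusted p under 0.05 in limma. Of 4 measured genes listed here as held down by Id factors, Thbs1, an anti-angiogenic matrix protein, fell by 0.46 in males (adjusted p = 0.000142 in limma). Cdh1, or E-cadherin, the adhesion protein of epithelium and also on that list, rose by 0.54 (adjusted p = 0.0187 in limma). Whether Id factors hold Cdh1 down in this tissue was not tested, so its direction says nothing about Id activity.

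In the BMP pathway, 2 of 10 ligands were higher and 2 lower in males, where 7.58% of all genes passed. Bmp7, a ligand of the UGS, rose by 0.22 (SD 0.15, n = 5, adjusted p = 0.0122 in limma), and Bmp4, a ligand of its mesenchyme, was at −0.13 (adjusted p = 0.438). At 6 h Bmp4 was at −0.23 (adjusted p = 0.21) and Bmp7 at −0.12 (adjusted p = 0.363). Of the feedback and target genes that BMP signalling induces beside the Id genes, 1 of 7 passed in males. That gene was Msx2, a homeobox factor, which fell by 0.94 (SD 0.32, n = 5, adjusted p = 5.91e-05 in limma), opposite to Id1, Id2 and Id3. The inhibitory Smads, Smad6 and Smad7, were at 0.03 and −0.11 in males and at −0.11 and −0.06 at 6 h, and passed in neither. Among 11 antagonists 1 was higher and 1 lower in males: Fst, or follistatin, rose by 0.46 (adjusted p = 0.00562 in limma) and Grem1, or gremlin, fell by 0.36 (adjusted p = 0.000357). Of 4 Smads 1 was lower, and of 8 receptors 0 passed in limma, with 2 at an unadjusted p under 0.05.

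**Figure D3:**
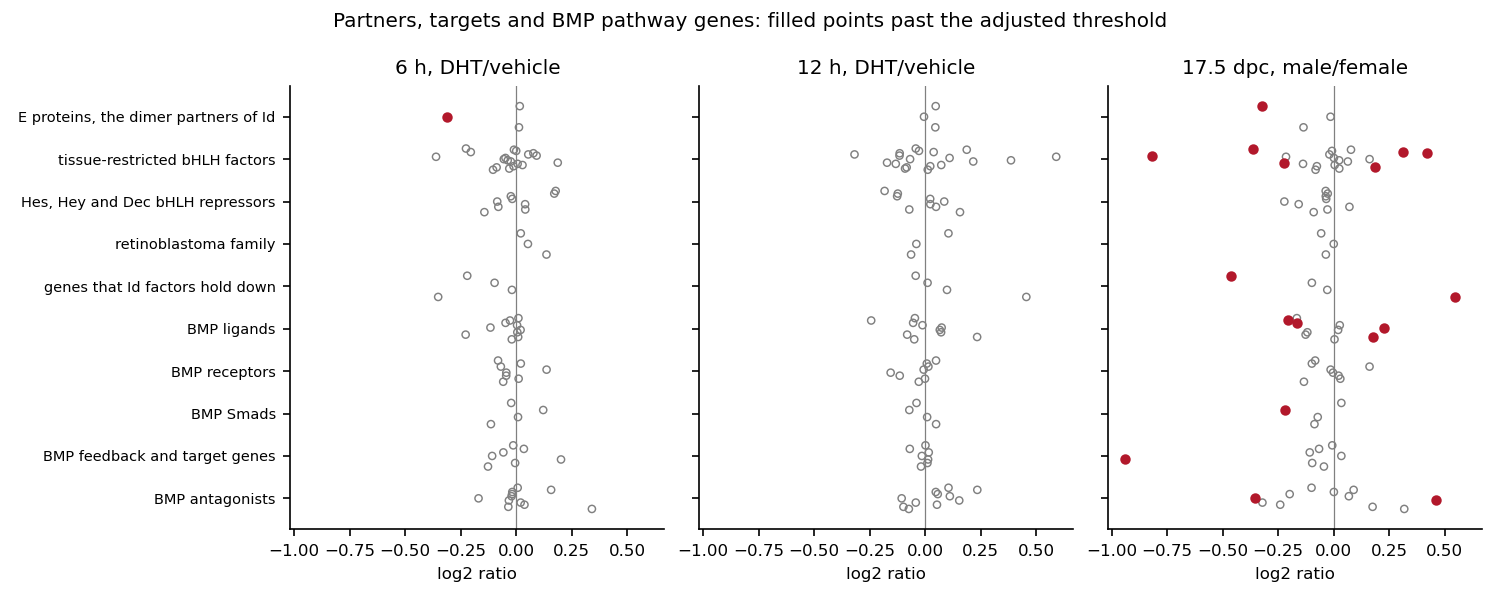
Log2 ratio (x axis) of 78 genes in 10 lists (y axis) in the 3 comparisons; filled points passed an adjusted p of 0.05 and open points did not. At 6 h 1 point is filled, at 12 h none, and in males against females 7 lie above and 10 below 0.

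Markers of other cells were measured beside the Id genes, and their part in the Id results was not tested. Marker counts at an unadjusted p under 0.05 in limma stand beside 3525 of 24717 genes at 6 h, 3479 at 12 h and 4569 in males. All 13 epithelial markers were detected on every array, as were the 12 endothelial, 7 mesenchymal and 8 immune markers. At 6 h the mean log2 ratio of the epithelial markers was −0.56, −0.44, −0.11 and −0.03 in replicates 1 to 4. Replicates 1 and 2 were thus lowest, as for Id1, and were the pairs in which Id4 was above 0. Id2 and Id3 followed another order. The brighter Id2 probe was lowest in replicate 4 (−0.22) and Id3 in replicate 3 (−0.40), and the second Id2 probe was highest in replicate 2 (−0.44). The summed epithelial intensity was 16623 to 20039 in DHT and 19663 to 26295 in vehicle pools, and 0 of 13 passed singly in limma, with 8 at an unadjusted p under 0.05.

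At 12 h the epithelial mean was −0.02, 0.26 and 0.56, with sums of 30316 to 50345 in DHT and 30867 to 33072 in vehicle pools. Between the sexes it was 0.10, 0.39, 0.48, 0.44 and 0.25, with sums of 40488 to 58058 in male and 35955 to 43925 in female pools, and 7 of 13 markers were higher, where 7.58% of all genes passed in either direction. Over the 12 pairs the epithelial mean had an r of 0.90 with Id1, 0.69 with Id2, 0.79 with Id3 and −0.77 with Id4. This r, like that of every marker list below, includes the differences between the comparisons. No r with the comparison means taken out is given for the marker lists. It therefore does not show that an Id gene followed a list from pair to pair within a comparison. The order of the 4 pairs at 6 h, given above, is likewise only a description. In it, Id3 in replicate 1 rested on 1 dye orientation.

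Of 8 immune markers 2 were higher at 6 h, where 1.63% of all genes passed, and 4 were lower in males, where 7.58% did. Their mean ran the other way, at 0.28, 0.17, 0.07 and 0.08 at 6 h and −0.07 to −0.27 in males, with r of −0.89, −0.82 and −0.87 with Id1, Id2 and Id3 and 0.76 with Id4. Summed immune intensity was 1797 to 2010 in DHT and 1493 to 1683 in vehicle pools at 6 h, and 1380 to 1627 in male and 1618 to 1833 in female pools. Of 7 mesenchymal markers 3 were lower in males, where their mean was −0.18, 0.01, −0.63, −0.85 and −0.14, and their sum 61567 to 145308 in male and 124157 to 143764 in female pools. Replicate 4, where Id3 and Id1 were highest, had the lowest mesenchymal mean. Over the 12 pairs the mesenchymal mean had an r of −0.68, −0.66 and −0.74 with Id1, Id2 and Id3 and 0.72 with Id4. For the mean of the 4 Y-linked genes r was 0.81, 0.96 and 0.88 with Id1, Id2 and Id3 and −0.62 with Id4. That was the r farthest from 0 of any list for Id2 and Id3.

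Endothelium is a known site of Id1 and Id3 expression. Of its 12 markers 0 passed at 6 h or at 12 h in limma, with 2 and 4 at an unadjusted p under 0.05, and 1 was lower in males. They had medians of 0.08 at 6 h, −0.09 at 12 h and −0.03 in males. The summed endothelial intensity overlapped in each comparison, at 5623 to 5819 in DHT and 5142 to 5729 in vehicle pools at 6 h, 5633 to 6274 in DHT and 5948 to 6231 in vehicle pools at 12 h, and 5627 to 6885 in male and 6091 to 6568 in female pools. In males 7.58% of all genes passed in either direction and at 6 h 1.63%. The 8 UGS markers, among them the caudal Hox genes, included 7 that were above background on all 24 arrays. Of these 8 markers 5 were higher in males and 1 was lower at 6 h. Their mean was −0.29, −0.27, −0.08 and 0.03 at 6 h, 0.16 to 0.34 at 12 h and 0.18 to 0.40 in males, with r of 0.92, 0.67 and 0.83 with Id1, Id2 and Id3 and −0.80 with Id4.

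Of 7 skeletal muscle markers 0 passed in any comparison in limma, with 0 at 6 h, 1 at 12 h and 2 in males at an unadjusted p under 0.05. Their mean was −0.44, −0.34, 0.23 and −0.01 at 6 h, −0.02 to 0.85 at 12 h and 0.35, −0.35, 1.70, 0.11 and 0.36 in males. Male-female replicate 3, where Id4 was lowest, had the highest skeletal muscle mean and the lowest mean of the neuron and Schwann cell markers (−0.43). Over the 12 pairs Id4 had an r of −0.73 with the skeletal muscle mean, 0.80 with the neuron and Schwann cell mean and 0.74 with the mean of 6 duct markers. With Id1, Id2 and Id3 the skeletal muscle mean had an r of 0.33 to 0.56, the neuron and Schwann cell mean of −0.48 to −0.22 and the duct mean of −0.77 to −0.76. Of 8 neuron and Schwann cell markers 0 passed in any comparison in limma, with 2 at 6 h and 0 elsewhere at an unadjusted p under 0.05, and 2 of 6 duct markers were lower in males. Of 8 smooth muscle markers 1 was lower at 6 h and 2 in males, and their mean had an r of −0.37 to −0.17 with the 4 Id genes. The share of all genes that passed in either direction was 1.63% at 6 h and 7.58% in males. Endothelium had an r of −0.69, −0.38 and −0.53 with Id1, Id2 and Id3 and 0.64 with Id4.

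**Figure D4:**
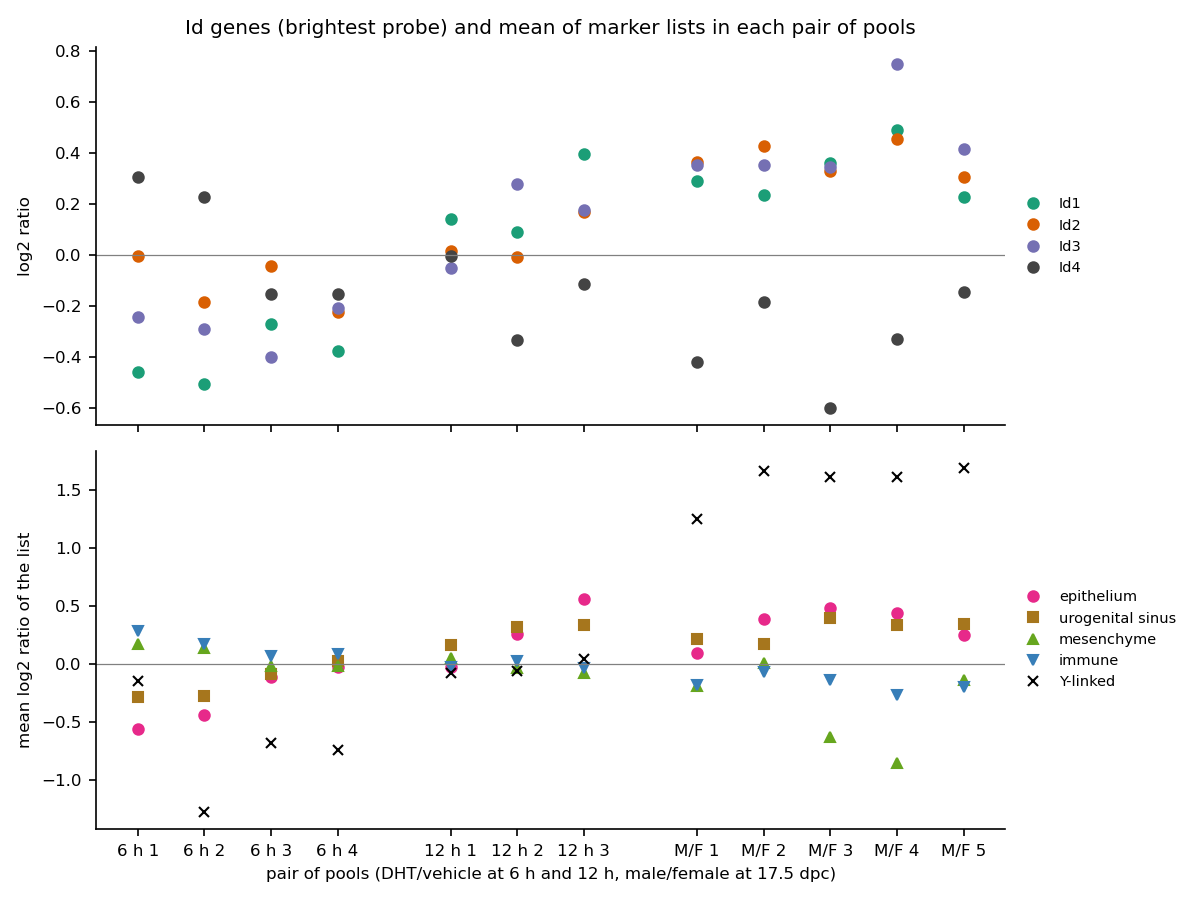
Log2 ratio of the 4 Id genes (upper y axis) and mean log2 ratio of 5 marker lists (lower y axis) in each of the 12 pairs of pools (x axis; M/F is male over female). Id1, Id2 and Id3 lie at or below 0 in all 6 h pairs and above 0 in all male-female pairs, and the epithelial mean is lowest in the first 6 h pair, at −0.56, and reaches 0.56 in the third 12 h pair.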

How the data were processed

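The files are 2-colour Agilent scanner outputs. Per the file headers, the authors extracted spot intensity, local background and a log10 ratio of Cy5 over Cy3 with Feature Extraction 7.5.1. The deposited matrix of processed values is in log2, with columns centred near 0 (medians −0.011 to 0.011); its sign was found to be the same for both dye orientations, and the centring method is not stated. Here, in R 4.3.3 with limma 3.58.1 and data.table version 1.17.8, mean signals were corrected by normexp (offset 50) and normalised by loess within arrays. Outlier spots were set to missing, signs turned by dye, and the 2 arrays of a pair averaged. Probes with a channel well above background on 6 of 24 arrays were kept (35477 probes), and the brightest stood for a gene. Pool levels were scaled by quantiles of mean intensity. The 12 pairs were fitted together with 1 coefficient per comparison, two-sided moderated tests and Benjamini-Hochberg adjustment, at 0.05. The fit was tested on simulated data. SD is over pairs and SE from the fit. Probes were named by accession, symbol or synonym in the RefSeq gene annotation. Nothing says that pools came from separate litters, so p-values measure the spread between these pools.

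The members and lists were chosen with earlier results of these data known. Named list genes are those past the threshold, at most 8 per comparison by size, with the E proteins, Bmp4, Bmp7, Smad6 and Smad7 always, and the 3 genes most correlated with each Id gene. Some genes that this rule names are not reported here. Replicate numbers were taken from the titles. The alternatives were other background, normalisation, filter, probe, fit and batch settings, the deposited ratios, each pair left out, and 6 h from replicate 1 only.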

Additional observations from a re-analysis of the deposited data

Results flagged for a closer look

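In 2 of 42 groups of 4 or 5 values (14 of ratios, 28 of pool levels), 1 value stood far from the rest, where chance gives about 1 in 20. The second Id2 probe read −0.44 in replicate 2 at 6 h, apart from −0.57 to −0.59 in the other pairs. Replicate 2 was also the pair with the most Y-linked RNA in its vehicle pool. Id3 read 0.749 in male-female replicate 4, apart from 0.35 to 0.41 in the other pairs. Among these, replicate 1 (0.353) rested on the unswapped array alone, where Id3 had a mean dye effect of −0.18. The gap therefore depends on a pair not balanced for dye and was not computed with that pair balanced. Replicate 4 also had the lowest mesenchymal marker mean, −0.85, and the highest Id1 ratio, 0.49.

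In 5 cases the ratio of a gene differed between comparisons in limma. For Id1 the 12 h ratio was 0.612 above the 6 h ratio and the male-female ratio 0.726 above it. For Id2 the male-female ratio was 0.491 above the 6 h ratio and 0.319 above the 12 h ratio. For Id3 the male-female ratio was 0.729 above the 6 h ratio. Comparison and hybridisation date cannot be told apart in any of them.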

How the results depend on the processing

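Of 408 values under alternatives, 366 kept direction and side of the threshold, 27 lost the threshold, 12 gained it and 3 changed sign. Id1, Id2 and Id3 in males passed under all 16 alternatives run. Among these Id1 was lowest with extraction day as a block, at 0.25 (adjusted p = 0.0271 in limma). With median centring, Id1 at 6 h was −0.412 and its 12 h minus 6 h difference 0.697, both no longer past, Id2's male-female minus 12 h difference was 0.176, and Id3 at 12 h was −0.018, turned in sign. With the scanner software's ratios the first 3 were −0.406, 0.617 and 0.327, not past. With each comparison fitted alone, Id1 at 6 h (−0.405) and Id4 in males (−0.337) did not pass. From 6 h replicate 1 only, Id1 at 6 h was −0.462, its 12 h difference 0.669, and the male-female differences of Id2 and Id3 0.38 and 0.689. Id3 at 6 h passed without background correction (−0.278), in the series matrix (−0.285), with detection on all 24 arrays (−0.286), over all probes (−0.286), with a dye term (−0.268) and with extraction day as a block (−0.269). The dye-term fit also brought Id3's 12 h minus 6 h (0.346) and male-female minus 12 h (0.391) differences and Id4's male-female minus 6 h difference (−0.392; −0.396 with day) past. With the mean of both probes Id2 passed at 6 h (−0.33) and for 12 h minus 6 h (0.421). Leaving out 1 pair gave −0.449 to −0.371 for Id1 and −0.028 to 0.126 for Id4 at 6 h (below 0 without replicate 1, and at −0.001 without replicate 2), −0.385 to −0.27 for Id4 in males, 0.519 to 0.672 for Id1's 12 h minus 6 h difference and 0.286 to 0.374 for Id2's male-female minus 12 h difference. The correlation of same-numbered pairs across comparisons ran from −0.07 to 0.29, so the numbers were not taken to pair the samples. With the replicate block, Id2's male-female minus 12 h difference was 0.345 (adjusted p = 0.0954), and no other call on a difference changed. The cause of these changes was not tested. Over all genes, the number past the threshold ran from 8 to 1420 at 6 h (403 in the results), 0 to 293 at 12 h (71), 869 to 2826 between the sexes (1873), 0 to 693 for 12 h minus 6 h (28), 815 to 2914 for male-female minus 6 h (1709) and 135 to 916 for male-female minus 12 h (408). All 7 Id probes were well above background on 24 of 24 arrays.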

Other observations

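The descriptions of 2 further probes name an Id gene, under other gene names, and they were not counted as members. A probe named AK013239, described as Id2, had log2 ratios of 0.86, −0.02, −0.38, 0.09 and 0.41 in male-female replicates 1 to 5, a mean of 0.19 (SD 0.47, n = 5), where the Id2 probes lay between 0.21 and 0.51. It read 0.02 on average at 6 h and 0.04 at 12 h, with a dye effect of 0.24 in each comparison. A probe named A330033J07Rik, described as Id4, lay near background and within −0.18 to 0.09 in all 12 pairs.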
